A study of Ovis aries with 6 samples.

Results

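The SLC25 family of mitochondrial carriers was measured in the choroid plexus of ewes, the brain tissue whose epithelium secretes cerebrospinal fluid. Members were all genes whose symbol in the count table is SLC25A followed by a number and whose mean over the 6 pools reached 0.5 CPM, the usual measure of counts relative to a library's total. Of the 33609 genes listed, 44 carried such a symbol and 42 of these reached that level, under 41 distinct symbols. The remaining 2, SLC25A31 and SLC25A45, had at most 10 and 2 counts in a pool. Their means were 0.068 and 0.019 CPM, where the lowest members, SLC25A41, one SLC25A37 locus and SLC25A34, had 2.71, 4.59 and 5.68 CPM. SLC25A2, SLC25A5, SLC25A18, SLC25A43 and SLC25A52 were not analysed here. The rule itself used no difference between groups, though it was chosen with earlier results of these data known. All 42 members had enough counts to be tested.

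Tissue came from thyroidectomised ewes kept in long days (THX, 7 ewes), thyroid-intact control ewes in long days (Long, 8 ewes) and thyroid-intact control ewes in short days (Short, 8 ewes). RNA of each ewe was mixed in equal amounts with that of others so that 3 to 4 ewes made up a pool and each group had 2 pools, and a pool averages its ewes. PolyA RNA of the 6 pools was sequenced and reads were counted per gene. The choroid plexus is made of epithelium, vessels and stroma, and in such bulk samples fewer cells of a type and less RNA per cell cannot be told apart.

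Proteins of the SLC25 family sit mainly in the inner mitochondrial membrane, where each exchanges or imports a particular set of solutes between the cytosol and the matrix. They bring in ADP and phosphate for ATP synthesis and release ATP. They also move citrate and other organic acids, amino acids, acylcarnitines, cofactors and iron, and so connect cytosolic metabolism with the tricarboxylic acid (TCA) cycle, heme synthesis and fat oxidation. Thyroid hormone is a known regulator of energy metabolism in many tissues. The epithelium of the choroid plexus is rich in mitochondria, which supply its ion pumping.

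The pools held 48282883 to 82100653 counts, of which the 42 members took 0.261% to 0.287%. The thyroid hormone target KLF9 was at 36.1 and 34.1 CPM in THX pools, 93.2 and 89.9 CPM in Long pools and 100 and 88.3 CPM in Short pools. Transthyretin (TTR), the carrier protein of the epithelium, was at 118872 and 140707 CPM in THX pools, 107613 and 109231 CPM in Long pools and 86397 and 92709 CPM in Short pools. Other markers of the epithelium did not all follow TTR. Of the 10 tested, TTR among them, 6 had a log2 difference above 0 and 4 below in THX against Long pools. In THX against Short pools 4 lay above 0 and 6 below. KCNJ13, for one, was at 622 and 778 CPM in THX pools, 865 and 893 in Long pools and 968 and 947 in Short pools. A principal component analysis of all genes had 3 pools apart from the rest, THX pool 2 and Short pool 1 at opposite ends of the first component and THX pool 1 at the end of the second. The summed level of 7 fibroblast markers was 441 and 582 CPM in THX pools, 806 and 735 CPM in Long pools and 657 and 846 CPM in Short pools. Long pool 2 held 53.5 CPM of the hemoglobin chain HBB, where the other 5 pools held 0.478 to 4.59 CPM. The 5 pituitary markers listed, of which prolactin was the most abundant, summed to 691 and 232 CPM in THX pools, 31.9 and 134 CPM in Long pools and 199 and 68.6 CPM in Short pools. Whether these markers had a part in the values below was not tested.

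None of the 42 members passed the test for a change in any of the 3 comparisons of the groups. The quasi-likelihood test of edgeR, fitted to all 18019 genes with enough counts and adjusted over all of them, called 0 members at an adjusted p under 0.05 each time. Among all tested genes it called 0.283% in THX against Long pools, 0.916% in THX against Short pools and 0% in Long against Short pools. A count of 0 is near these shares and does not set the family apart. At an unadjusted p under 0.05 there were 8 members in THX against Long, where 9.08% of all genes passed that lesser threshold. Of these 1 was higher and 7 were lower, against 4.16% and 4.92% of all genes. In THX against Short there were 12, where 22.6% of all genes passed. Of these 5 were higher and 7 were lower, against 10.8% and 11.8% of all genes. In Long against Short there were 6, where 13.8% of all genes passed. Of these 5 were higher and 1 was lower, against 6.47% and 7.33% of all genes. DESeq2 called 3, 3 and 0 members, where it called 448, 1761 and 159 of the 18019 genes. By limma-voom these were 0, 0 and 0 members and 45, 176 and 0 genes. Leaving out THX pool 1 moved the THX against Short comparison to 1083 called genes, against 165 with it, and to 2 called members, in a fit whose spread comes from the Long and Short pools alone.

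Most intervals of the members excluded a 2-fold change, but they were wide beside the differences themselves. In THX against Long pools the median half-width was 0.28 on the log2 scale. The median size of the members' differences was 0.086 there, where that of all genes was 0.12. In THX against Long pools the 95% interval of the log2 difference lay within a 2-fold change either way for 41 of 42 members, and within a 1.5-fold change for 33. In THX against Short pools these counts were 40 and 31, and in Long against Short pools 40 and 34. Such counts of intervals were not made over all genes, so they do not set the family apart. The exceptions to the 2-fold bound were SLC25A41 against Long, SLC25A41 and the minor SLC25A37 locus in THX against Short, and SLC25A27 and the minor SLC25A37 locus in Long against Short. Their means over all pools, relative to total counts, were 2.71, 4.59 and 7.28 CPM for SLC25A41, the minor SLC25A37 locus and SLC25A27. Across the 6 pools the highest level of a member was a median of 1.33 times its lowest. The same ratio was 1.31 over the 13174 tested genes at or above the lowest member's mean of 2.72 CPM, so the carriers varied between pools about as much as other genes.

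**Figure D1:**
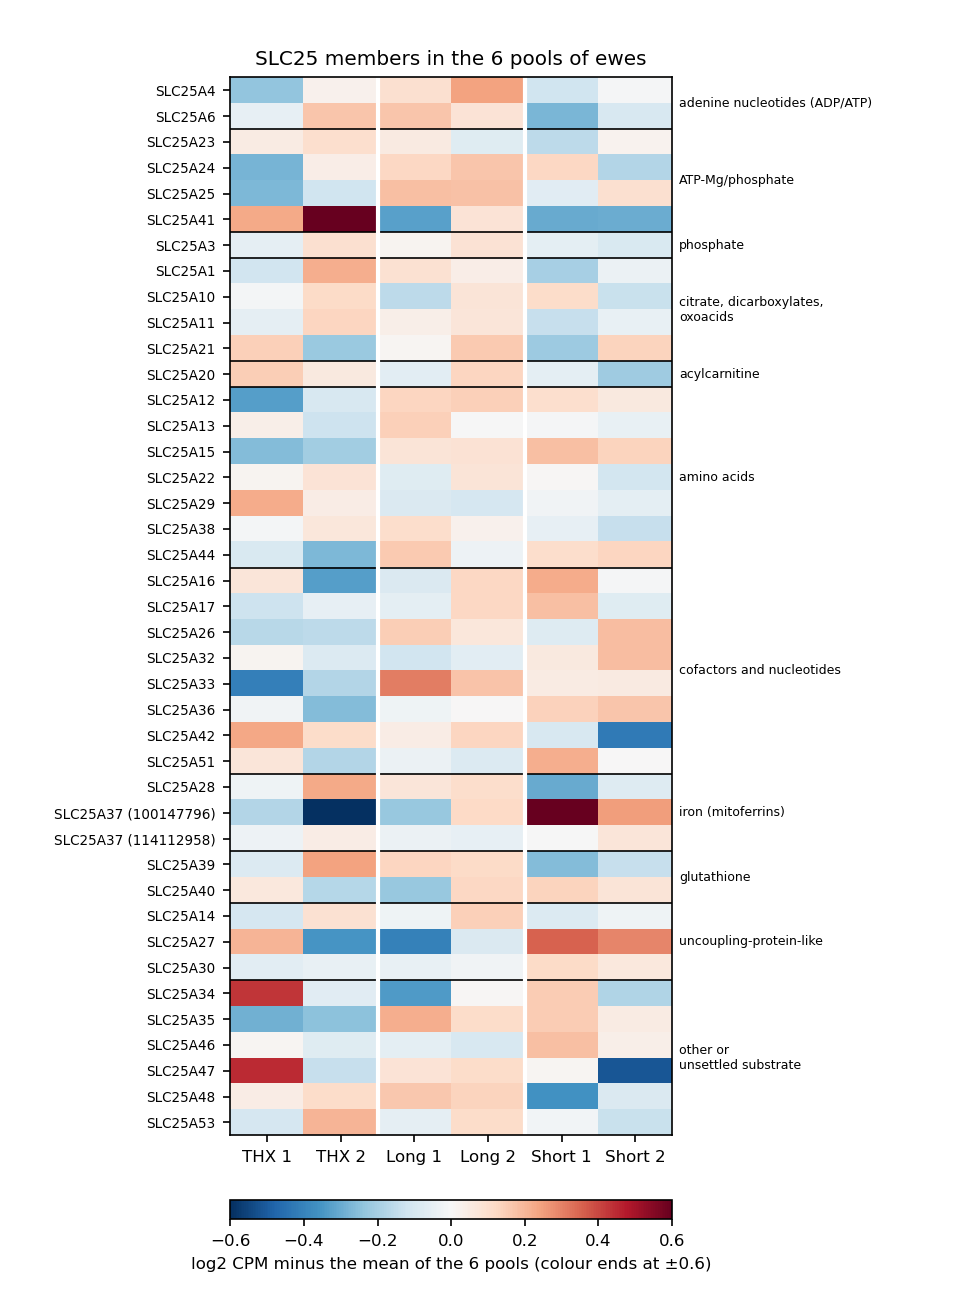
Level of 41 of the 42 SLC25 members in the 6 pools, as log2 CPM minus the mean over the pools (colour, ending at 0.6 either way), with rows in groups by transported solute. Strong colours are few and lie in members with low counts, such as SLC25A41 and SLC25A37 (100147796), and no column is of 1 colour throughout.

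The summed level of the family depends most on SLC25A3 and SLC25A6, its members with the most counts. It was 2648 and 2878 CPM in THX pools, 2856 and 2870 CPM in Long pools and 2551 and 2615 CPM in Short pools. Both Short pools were lowest, while the THX pools spanned a wider range than the gap between THX and Long means. The median member differed by −0.02 on the log2 scale in THX against Long pools (17 of 42 above 0), where the median of all genes was 0.00 and 50.3% of them lay above 0. In THX against Short pools the median member was at −0.01 (21 of 42 above 0), as was the median gene, and 49% of all genes lay above 0. In Long against Short pools it was at 0.06 (26 of 42 above 0), where all genes had a median of −0.00 and 49.7% lay above 0.

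Groups that did not overlap were no more frequent among members than among all genes when THX was set against Long. Both THX pools lay above both Long pools in 3 members and below them in 10, or 31% of the family, where 37.2% of all genes were so separated (18.5% above and 18.7% below). THX and Short pools were separated in 27 members (13 higher, 14 lower, 64.3%), against 52.5% of all genes (25.7% higher, 26.7% lower). Long and Short pools were separated in 26 (16 higher, 10 lower, 61.9%), against 53.5% of all genes (26.7% higher, 26.8% lower). Both comparisons with Short pools share those pools, and both comparisons of THX share its pools, so these counts are not independent.

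**Figure D2:**
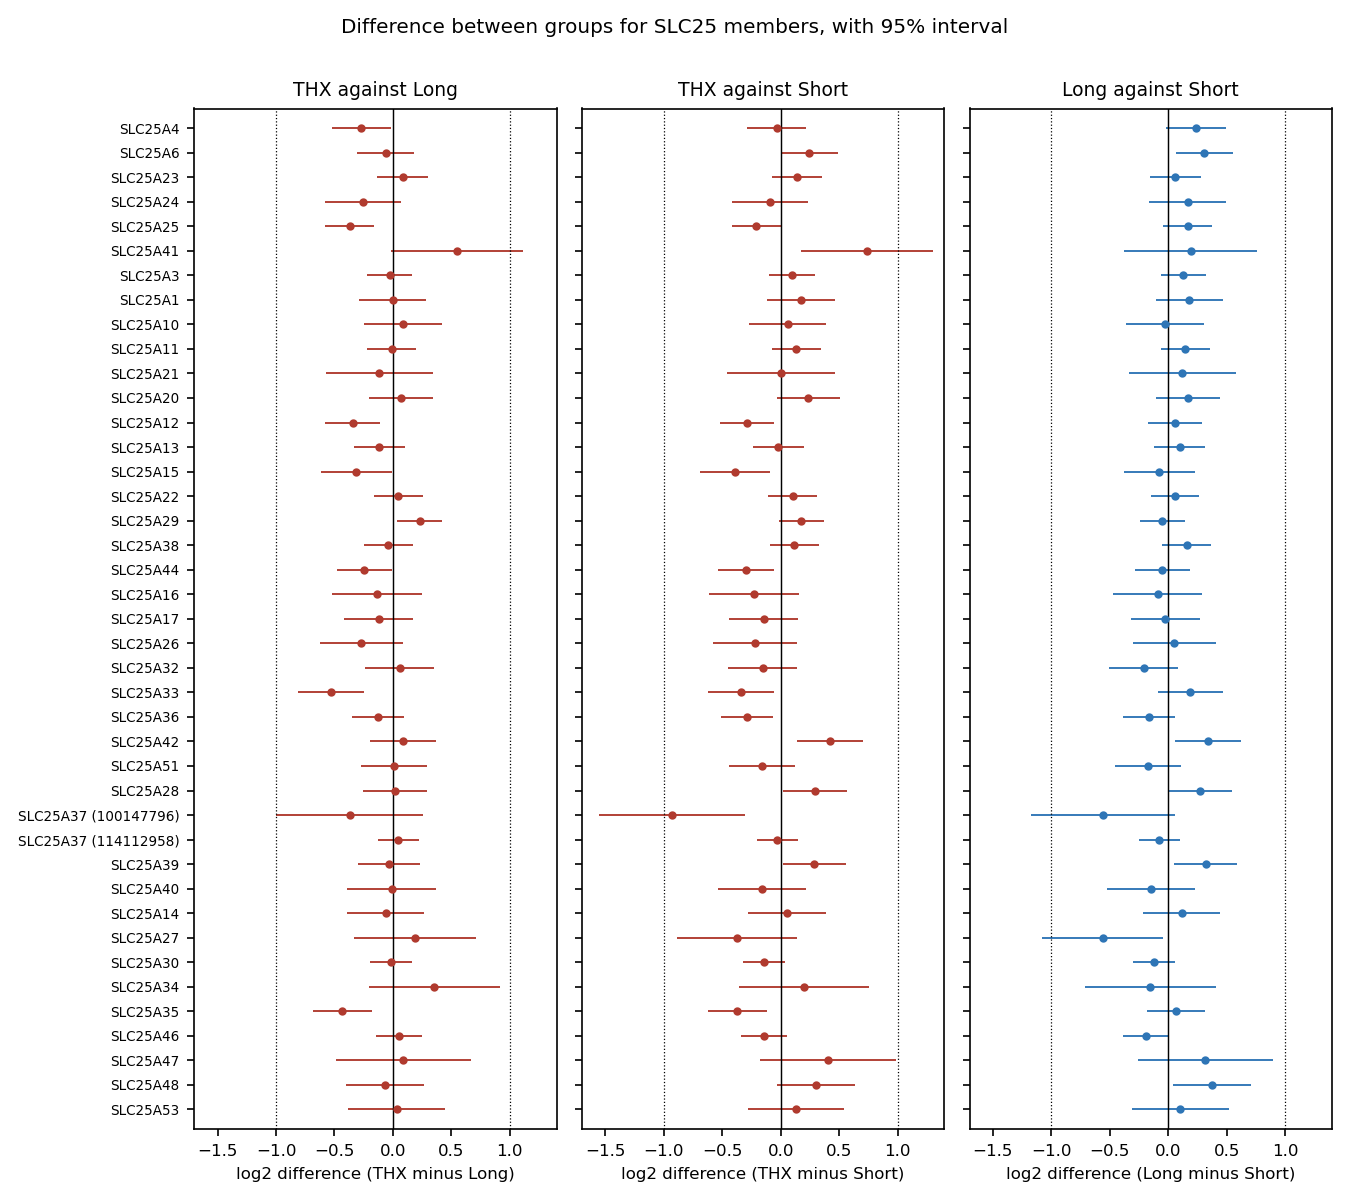
Fitted log2 difference of 41 of the 42 SLC25 members (points) with its 95% interval (bars) in THX against Long, THX against Short and Long against Short pools, with dotted lines at a 2-fold change. Most intervals lie inside the dotted lines, and the widest belong to SLC25A41, SLC25A37 (100147796), SLC25A47, SLC25A34 and SLC25A27.

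Carriers of adenine nucleotides and phosphate serve ATP synthesis most directly. SLC25A3, which imports phosphate into the matrix, was at 603 and 668 CPM in THX pools, 633 and 664 CPM in Long pools and 600 and 587 CPM in Short pools. Its log2 difference was −0.03 in THX against Long (SE 0.082, adjusted p = 0.98) and 0.13 in Long against Short pools (adjusted p = 0.491). The Short pools were lowest, by little, and THX and Long pools overlapped. Of the ADP/ATP carriers, SLC25A4 and SLC25A6 were measured here, and SLC25A5 was not analysed here.

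SLC25A6, an ADP/ATP carrier, was at 559 and 648 CPM in THX pools, 649 and 612 CPM in Long pools and 478 and 541 CPM in Short pools. Both Long pools lay above both Short pools, as did both THX pools. The log2 difference was 0.31 in Long against Short pools (SE 0.104, adjusted p = 0.342), the lowest unadjusted p of the family there, and 0.25 in THX against Short pools (adjusted p = 0.22). SLC25A4, the isoform known from heart and skeletal muscle, was at 106 and 127 CPM in THX pools, 134 and 148 CPM in Long pools and 115 and 124 CPM in Short pools. It was lower in both THX than in both Long pools (log2 difference −0.27, SE 0.108, adjusted p = 0.524), and THX and Short pools overlapped. Skeletal muscle markers, summed over 6 genes, were at 0.95 and 1.16 CPM in THX pools and 1.02 and 5.21 CPM in Long pools. In Short pools they were at 0.828 and 0.896 CPM, and MYH1 and MYH2 were at 0 in all pools. Long pool 2 thus had the highest level of these markers and of SLC25A4, and a part of muscle in that level was not tested.

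Counts of both ADP/ATP carriers divided in nearly the same way in all pools. SLC25A4 took 16% and 16.4% of their joint counts in THX pools, 17.1% and 19.5% in Long pools and 19.4% and 18.7% in Short pools. Both THX pools were lowest, but Long pool 1 lay closer to them than to Long pool 2. These shares are of counts, which were not divided by transcript length. They therefore serve to compare pools and not the genes. The pair are close paralogs, and reads that fit both, or a processed copy of either, could be split between them by the counting.

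The ATP-Mg/phosphate carriers shift the adenine nucleotide pool of the matrix, and most of them respond to calcium. SLC25A25 was at 67 and 74.3 CPM in THX pools, 91.5 and 91.3 CPM in Long pools and 77 and 86.2 CPM in Short pools. Both THX pools lay below all 4 thyroid-intact pools. The level was 1.29-fold lower in THX than in Long pools (log2 difference −0.37, SE 0.09, unadjusted p = 0.00444, adjusted p = 0.238), without passing over all genes. Against Short pools the log2 difference was −0.21 (adjusted p = 0.228).

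SLC25A41, a related carrier with few counts (108 to 269 per pool), was at 3.1 and 4.05 CPM in THX pools, 2.11 and 2.80 CPM in Long pools and 2.14 and 2.15 CPM in Short pools. It was the opposite case, with both THX pools above all 4 thyroid-intact pools. Its log2 difference was 0.55 against Long (SE 0.238, adjusted p = 0.57) and 0.74 against Short pools (SE 0.238, adjusted p = 0.149). SLC25A41 and SLC25A23 overlap each other in the RefSeq annotation used here for names, so reads of one may be counted for the other. SLC25A23 was at 56.9 and 59 CPM in THX pools, 57.1 and 52.4 CPM in Long pools and 49.3 and 55.9 CPM in Short pools (log2 difference 0.08 in THX against Long, adjusted p = 0.91).

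SLC25A24, the remaining carrier of this type, was at 28.4 and 35.3 CPM in THX pools, 37.6 and 38.6 CPM in Long pools and 37.5 and 30.4 CPM in Short pools. The THX pools were below the Long pools but overlapped the Short pools (log2 difference −0.26 in THX against Long, SE 0.138, adjusted p = 0.683). Within the set of 4, SLC25A25 took 43.1% and 43% of the counts in THX pools, 48.6% and 49.3% in Long pools and 46.4% and 49.3% in Short pools. SLC25A23 took 36.6% and 34.2% in THX pools, 30.3% and 28.3% in Long pools and 29.7% and 32% in Short pools. Neither share of the THX pools overlapped those of the other pools. With 2 pools a group an exact test of a share cannot reach the threshold of 0.05.

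**Figure D3:**
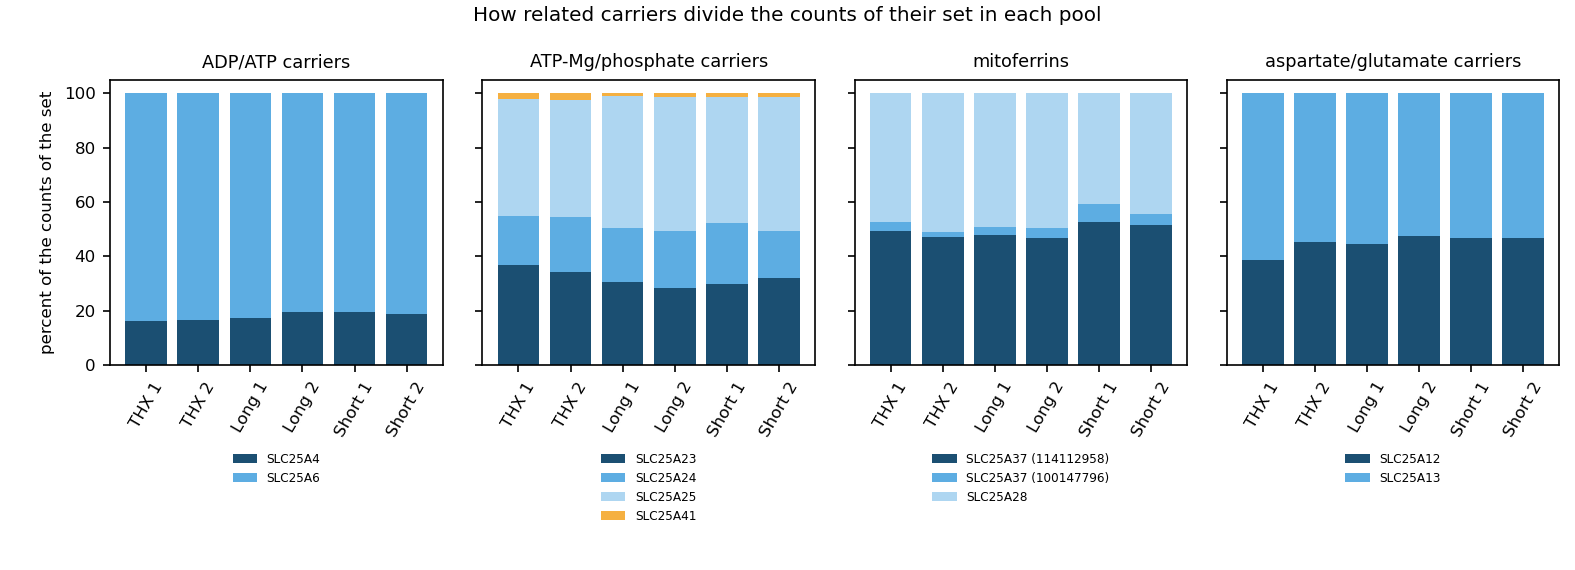
Percent of the counts of each set of related carriers taken by each of its members, in bars per pool, for the ADP/ATP carriers, the ATP-Mg/phosphate carriers, the mitoferrins and the aspartate/glutamate carriers. SLC25A25 takes 43.1% and 43% in THX pools and at least 46.4% in the other pools, and SLC25A28 takes 40.8% and 44.3% in Short pools and at least 47.3% elsewhere.

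None of the 4 carriers of organic acids passed the test in any comparison. SLC25A1, which exports citrate for fatty acid synthesis, was at 42.5 and 53.6 CPM in THX pools, 49 and 47.3 CPM in Long pools and 40.1 and 45 CPM in Short pools. The log2 difference in THX against Long was −0.00, with an interval of −0.29 to 0.29. SLC25A11, the oxoglutarate/malate carrier, SLC25A10, the dicarboxylate carrier, and SLC25A21, the carrier of oxoadipate, had log2 differences of −0.01, 0.09 and −0.12 in the same comparison. THX and Long pools overlapped in all 4. SLC25A20, which brings acylcarnitines in for fat oxidation, was at 20 and 18.8 CPM in THX pools, 17.3 and 19.7 CPM in Long pools and 17.3 and 15.5 CPM in Short pools. Both THX pools lay above both Short pools (log2 difference 0.24, SE 0.115, adjusted p = 0.265).

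Among the amino acid carriers 4 of 7 had THX pools wholly outside the range of the 4 thyroid-intact pools, 3 below and 1 above. Of all genes 11.3% lay below and 11% above. SLC25A12, one of the aspartate/glutamate carriers of the malate-aspartate shuttle, was at 25 and 29.4 CPM in THX pools, 34.3 and 34.7 CPM in Long pools and 33.6 and 32.7 CPM in Short pools. The log2 difference was −0.34 against Long (SE 0.099, unadjusted p = 0.0103, adjusted p = 0.323) and −0.29 against Short pools (SE 0.099, adjusted p = 0.162). SLC25A13, the other carrier of that shuttle, was at 39.6 and 35.4 CPM in THX pools, 42.7 and 38.6 CPM in Long pools and 38.4 and 37.5 CPM in Short pools. Its groups overlapped in both comparisons of THX (log2 difference −0.12 against Long, adjusted p = 0.833). SLC25A12 took 38.7% and 45.3% of the counts of both in THX pools, 44.6% and 47.3% in Long pools and 46.7% and 46.5% in Short pools, and THX pool 1 alone lay apart.

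SLC25A15, the ornithine carrier of the urea cycle, was at 7.04 and 7.29 CPM in THX pools, 8.88 and 8.94 CPM in Long pools and 9.54 and 9.24 CPM in Short pools. The log2 difference was −0.31 against Long (SE 0.128, adjusted p = 0.531) and −0.39 against Short pools (SE 0.128, adjusted p = 0.151). SLC25A44, which carries branched-chain amino acids, was at 34.3 and 30.3 CPM in THX pools, 40.8 and 35.8 CPM in Long pools and 39.4 and 40 CPM in Short pools. Both genes had their 2 lowest values in the THX pools, without passing the test (SLC25A44 log2 difference −0.24 against Long, adjusted p = 0.537, and −0.30 against Short, adjusted p = 0.16).

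SLC25A29, which carries basic amino acids such as arginine and lysine, differed the other way. It was at 149 and 132 CPM in THX pools, 120 and 119 CPM in Long pools and 126 and 123 CPM in Short pools. Both THX pools lay above all 4 thyroid-intact pools, by 1.17-fold over Long (log2 difference 0.23, SE 0.081, unadjusted p = 0.0255, adjusted p = 0.449). The glutamate carrier SLC25A22 (log2 difference 0.04 in THX against Long) and the glycine carrier SLC25A38 (−0.04), which supplies heme synthesis, overlapped between THX and Long pools, with intervals of −0.16 to 0.25 and −0.25 to 0.17.

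Carriers of nucleotides and cofactors held the member with the lowest p in the comparison of THX with Long pools. SLC25A33, a carrier of pyrimidine nucleotides, was at 12.5 and 14.7 CPM in THX pools, 20.6 and 18.7 CPM in Long pools and 17.2 and 17.2 CPM in Short pools. The THX pools were the lowest 2 of the 6. The level was 1.44-fold lower in THX than in Long pools (log2 difference −0.53, SE 0.119, unadjusted p = 0.00306, adjusted p = 0.211), and the log2 difference was −0.34 against Short pools (adjusted p = 0.166). Its interval against Long, −0.81 to −0.25, does not reach a 2-fold change.

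SLC25A36, the other pyrimidine nucleotide carrier, was at 70.7 and 60 CPM in THX pools, 70.5 and 71.9 CPM in Long pools and 79.1 and 80.6 CPM in Short pools. THX and Long pools overlapped, and both lay below the Short pools (log2 difference −0.29 in THX against Short, SE 0.094, adjusted p = 0.149). Without THX pool 1 that difference was −0.41 (adjusted p = 0.046), in a fit where THX is 1 pool, assumed to vary like the Long and Short pools that give the spread. SLC25A42, which imports coenzyme A, was at 66.9 and 61.5 CPM in THX pools, 58.7 and 62.3 CPM in Long pools and 53.2 and 42.4 CPM in Short pools. Both Short pools were lowest. The log2 difference was 0.42 in THX against Short (SE 0.118, unadjusted p = 0.00913, adjusted p = 0.122), the lowest p of the family there, and 0.34 in Long against Short pools (SE 0.118, adjusted p = 0.342).

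Further cofactor carriers, for S-adenosylmethionine (SLC25A26), folate and FAD (SLC25A32), NAD (SLC25A51) and the peroxisomal cofactor carrier SLC25A17, ranged from −0.27 to 0.06 in log2 difference in THX against Long pools. SLC25A26 was the lowest of these, at 6.74 and 6.78 CPM in THX pools, 8.37 and 7.93 CPM in Long pools and 7.16 and 8.58 CPM in Short pools. Both THX pools were below all others there, without passing (adjusted p = 0.703 against Long). SLC25A16, whose substrate is debated, had THX and Long pools that overlapped (log2 difference −0.14).

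**Figure D4:**
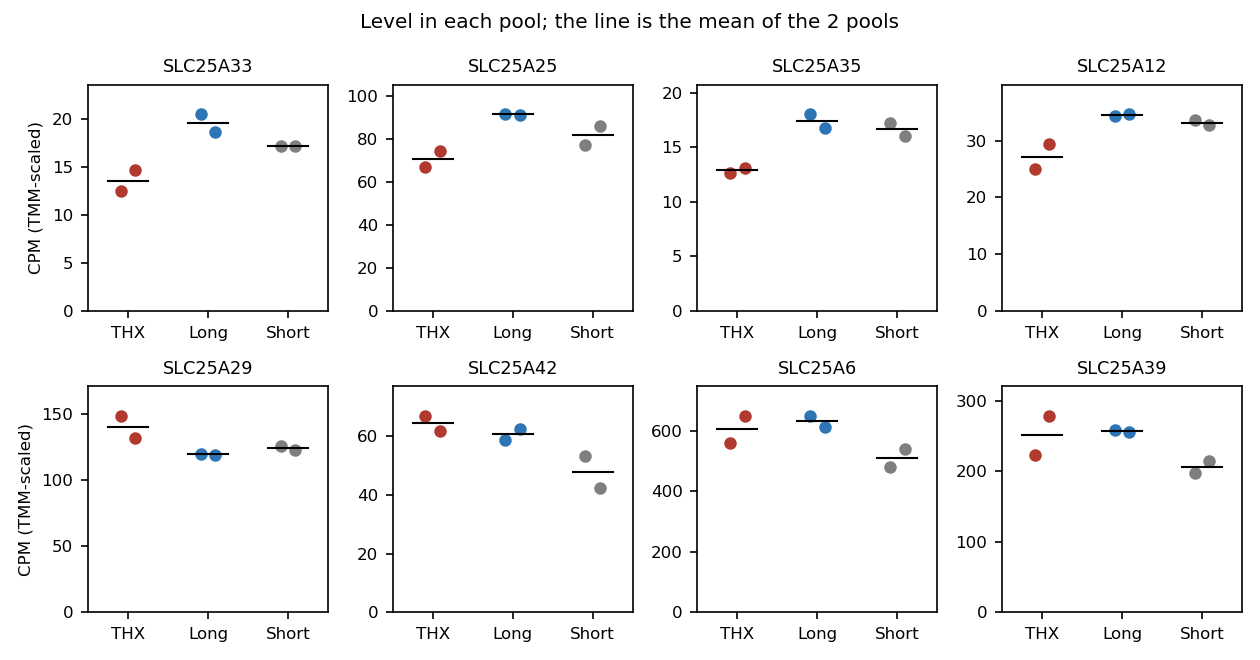
TMM-scaled CPM of 8 SLC25 members in each pool (points) with the mean of the 2 pools of a group (line), THX, Long and Short from left to right, on axes that start at 0. THX pools are lowest for SLC25A33, SLC25A25, SLC25A35 and SLC25A12 and highest for SLC25A29, and Short pools are lowest for SLC25A42, SLC25A6 and SLC25A39.

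Iron enters the matrix for heme and iron-sulfur cluster synthesis through the mitoferrins, SLC25A37 and SLC25A28. The count table lists SLC25A37 under 2 identifiers, both on chromosome 2 in the RefSeq annotation. The identifier 100147796 is named LOC100147796 there and overlaps LOC106990930, so some of its counts may belong to that gene. The major one (114112958) was at 58.3 and 61.3 CPM in THX pools, 58.1 and 57.6 CPM in Long pools and 59.5 and 62.5 CPM in Short pools. Its highest level was 1.09 times its lowest. Whether the HBB of Long pool 2 goes with these levels was not tested. The minor one (100147796) was at 3.84 and 2.68 CPM in THX pools, 3.71 and 4.71 CPM in Long pools and 7.21 and 5.16 CPM in Short pools. It was highest in both Short pools (log2 difference −0.93 in THX against Short, SE 0.263, unadjusted p = 0.00969, adjusted p = 0.124, and −0.56 in Long against Short, adjusted p = 0.38). That difference of −0.93 is the largest in size of the family in any comparison.

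SLC25A28, the mitoferrin of non-erythroid cells, was at 55.8 and 66.6 CPM in THX pools, 59.7 and 61 CPM in Long pools and 46 and 53.9 CPM in Short pools. Both Short pools were lowest (log2 difference 0.29 in THX against Short, adjusted p = 0.196, and 0.27 in Long against Short, SE 0.115, adjusted p = 0.362). SLC25A28 took 47.3% and 51% of the mitoferrin counts in THX pools, 49.1% and 49.5% in Long pools and 40.8% and 44.3% in Short pools. The Short pools thus did not overlap the other pools in that share.

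SLC25A39, which is needed for glutathione import, was at 223 and 279 CPM in THX pools, 258 and 256 CPM in Long pools and 197 and 215 CPM in Short pools. The THX pools were far apart and both Short pools were lowest. The log2 difference was 0.32 in Long against Short (SE 0.113, adjusted p = 0.342) and 0.29 in THX against Short pools (adjusted p = 0.199). Without THX pool 1 the difference from Short pools was 0.44 (adjusted p = 0.0446), again with the spread taken from the Long and Short pools alone. Its paralog SLC25A40 was at 11.9 and 10.1 CPM in THX pools, 9.74 and 12.5 CPM in Long pools and 12.5 and 12 CPM in Short pools, with a log2 difference of −0.01 in THX against Long.

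The carriers that resemble uncoupling proteins and those of unsettled substrate included 3 further members with an unadjusted p under 0.05 in some comparison, SLC25A35, SLC25A27 and SLC25A48. SLC25A35, whose substrate is not settled, was at 12.7 and 13.1 CPM in THX pools, 18 and 16.7 CPM in Long pools and 17.2 and 16 CPM in Short pools. Both THX pools lay below all 4 thyroid-intact pools. The log2 difference was −0.43 against Long (SE 0.106, unadjusted p = 0.00479, adjusted p = 0.246) and −0.37 against Short pools (SE 0.106, adjusted p = 0.127). In the RefSeq annotation it overlaps RANGRF, so some of its counts may belong to that gene.

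SLC25A27, an uncoupling-protein-like carrier of the nervous system, was at 8.17 and 5.56 CPM in THX pools, 5.35 and 6.68 CPM in Long pools and 9.06 and 8.68 CPM in Short pools. Both Long pools were below both Short pools (log2 difference −0.56, SE 0.218, adjusted p = 0.349), while the THX pools lay on either side of Long pool 2. SLC25A48, a carrier linked to choline, was at 10.2 and 10.6 CPM in THX pools, 11 and 10.8 CPM in Long pools and 7.66 and 9.28 CPM in Short pools (log2 difference 0.37 in Long against Short, SE 0.141, adjusted p = 0.349). SLC25A46, which sits in the outer membrane and acts in mitochondrial dynamics, was at 49.3 and 46.5 CPM in THX pools, 46.9 and 45.7 CPM in Long pools and 55.4 and 50.1 CPM in Short pools (log2 difference −0.19 in Long against Short, adjusted p = 0.369). The remaining members of these groups, SLC25A14, SLC25A30, SLC25A34, SLC25A47 and SLC25A53, had no adjusted p under 0.307 in any comparison, and THX and Long pools overlapped in all 5.

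Set against all 4 thyroid-intact pools, both THX pools lay below in 7 of 42 members, SLC25A12, SLC25A15, SLC25A25, SLC25A26, SLC25A33, SLC25A35 and SLC25A44, or 16.7%. All genes did so in 11.3% of cases. They lay above in 2, SLC25A29 and SLC25A41, or 4.76%, where all genes did so in 11%. This count was made after the values were seen, and no test was made of it. The summed fibroblast markers, given above, also lay lower in both THX pools than in the other 4, as did those of pericytes and smooth muscle. Summed markers of epithelium, ependyma, neurons and pituitary lay higher in both THX pools than in the other 4. The part of any of these cell types in the values was not tested.

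Genes with related roles were read from the same fit. Of the family members under other symbols, the outer membrane proteins MTCH1 and MTCH2 and the uncoupling protein UCP2 were tested. Of these 0 of 3 passed the test in any comparison. MTCH2, an insertase of the outer membrane, averaged 118 ± 7.51 CPM in THX pools and 138 ± 3.23 CPM in Long pools (SD, n = 2 each; log2 difference −0.23, SE 0.081, adjusted p = 0.449 by edgeR). UCP1 and UCP3 did not reach the count filter. Of the 15 tested genes of carrier import, the TIM22 and TOM machinery that inserts the carriers, 0 passed the test in each comparison. Their median log2 difference was 0.05 in THX against Long (10 above 0), 0.17 in THX against Short (13 above 0) and 0.14 in Long against Short pools (12 above 0). TOMM7, a small subunit of the outer membrane pore, averaged 81.6 ± 8.88 CPM in THX pools and 61 ± 5 CPM in Short pools (SD, n = 2 each; log2 difference 0.42, SE 0.102, adjusted p = 0.0976 by edgeR).

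The 17 enzymes of the TCA cycle, which the carriers supply, all lay below 0 in THX against Long pools, with 0 past the test. Their median log2 difference was −0.15 there, where all genes had a median of 0.00, and 13 of 17 had THX pools wholly below the Long pools, as did 18.7% of all genes. Malate dehydrogenase MDH2 averaged 469 ± 47.5 CPM in THX pools and 562 ± 4.71 CPM in Long pools (SD, n = 2 each; log2 difference −0.26, SE 0.089, adjusted p = 0.429 by edgeR). Citrate synthase (CS) averaged 181 ± 1.51 CPM in THX pools and 205 ± 4.8 CPM in Long pools (SD, n = 2 each; log2 difference −0.18, adjusted p = 0.499). Against Short pools the THX median was −0.02 with 6 of 17 above 0, and in Long against Short pools the median was 0.09 with 15 above 0. No enzyme of the list passed the test in those comparisons, and the SLC25 members, as given above, had medians of −0.02, −0.01 and 0.06.

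The 18 tested genes of other inner membrane transport had medians of −0.03, −0.05 and −0.02 in THX against Long, THX against Short and Long against Short pools. Of these genes 0 passed the test. The mitochondrial calcium uniporter MCU averaged 25.6 ± 0.0188 CPM in THX pools and 32 ± 0.081 CPM in Short pools (SD, n = 2 each; log2 difference −0.32, SE 0.082, adjusted p = 0.106 by edgeR). The outer membrane channels VDAC1, VDAC2 and VDAC3, through which solutes reach the carriers, had log2 differences of −0.07, −0.05 and 0.08 in THX against Long pools. In THX against Short pools they were −0.06, 0.15 and 0.31, and in Long against Short pools 0.01, 0.20 and 0.23. None passed the test (lowest adjusted p = 0.116 by edgeR, for VDAC3 in THX against Short pools). Of 11 regulators of mitochondrial biogenesis 0 passed the test. PPARGC1B, a coactivator of such genes, averaged 4.85 ± 0.109 CPM in THX pools, 7.95 ± 1.76 CPM in Long pools and 10.6 ± 2.64 CPM in Short pools (SD, n = 2 each). Its log2 difference of −1.14 in THX against Short pools did not pass (SE 0.229, adjusted p = 0.0726 by edgeR), and that of −0.71 against Long pools did not either (adjusted p = 0.401).

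**Figure D5:**
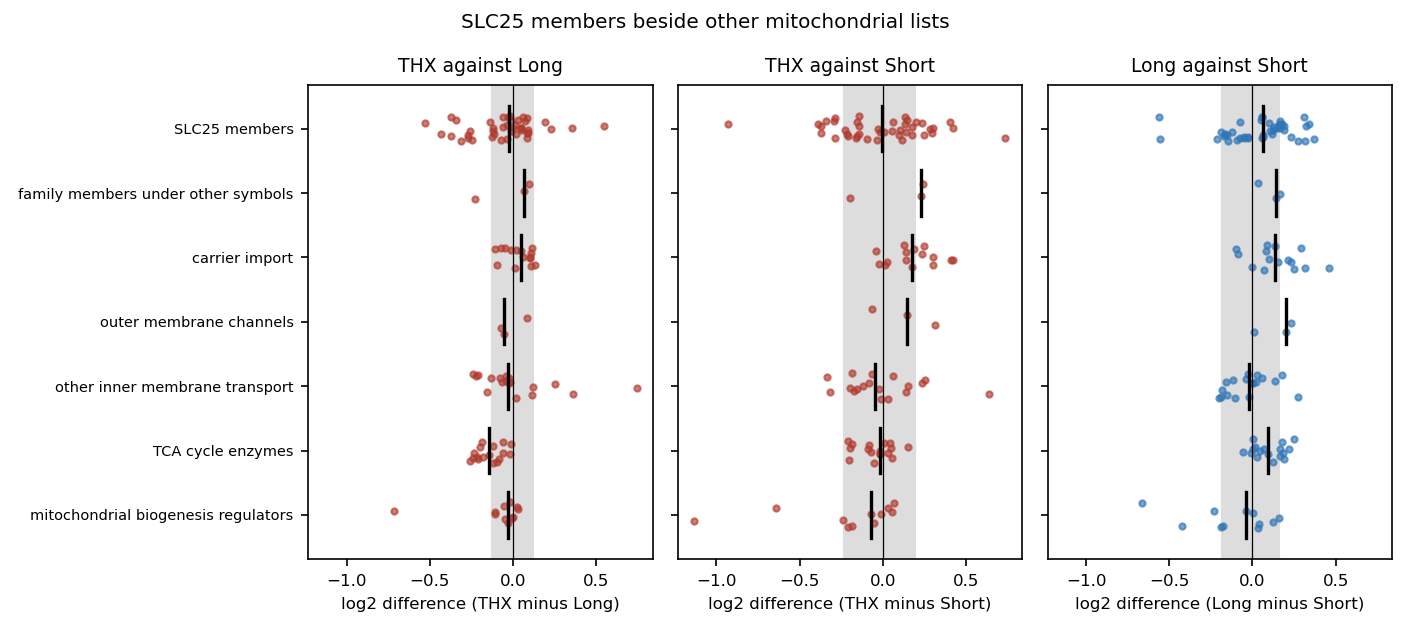
Log2 difference of each tested gene (points) and the median (black line) for the SLC25 members and 6 other mitochondrial lists in the 3 comparisons, with the interquartile range of all tested genes shaded. The SLC25 medians of −0.02, −0.01 and 0.06 lie within the shading, and the TCA cycle enzymes have a median of −0.15 in THX against Long pools.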

How the data were processed

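What was deposited are counts per gene, whole numbers without any scaling by the authors, for 6 pools of ewes. The kit was stranded, per the labels. The submitters' processing notes name featureCounts 2.0.0, TopHat2 2.1.1, SAMtools 1.9, bcl2fastq 2.20, MultiQC 1.9 and FastQC 0.11.8. Build, annotation and strand setting of the counting: not given in the sources used here. Counts of overlapping genes are therefore uncertain. Of the 42 members, 41 were matched by identifier to a RefSeq table (assembly ARS-UI_Ramb_v3.0), used for names and neighbours alone, in which 12 overlap another gene. The identifier listed as SLC25A53 was not matched, and the table gives that symbol to another identifier.

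The default filter of edgeR 4.0.16 (R 4.3.3) kept 18019 genes. After TMM scaling, all 6 pools entered a single quasi-likelihood fit with a mean for each group and 3 residual degrees of freedom. Two-sided F tests were adjusted over all genes (Benjamini-Hochberg, threshold 0.05). CPM are TMM-scaled, except in choosing members and where said to be relative to total counts, where they use total counts. The SE is the log2 difference divided by the root of F, and intervals use the moderated degrees of freedom. A pool is a mixture of ewes, so p-values measure the spread between pools and not between ewes. The 2 pools of a group differed by 70.1 (THX), 15.8 (Long) and 28.3 (Short) times the variance of counting alone, so each was counted as a separate library.

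Full values were given for the 8 members with the lowest p in each comparison, the 5 with the most counts and the sets of related carriers, and for up to 3 genes per other list, not all of which are printed. A single member enters the counts and medians but its own values are not reported here. Members, lists and tests were chosen with earlier results of these data known. The procedure was tested on simulated counts. Alternatives used DESeq2 1.42.0, limma 3.58.1 (voom), other scalings, filters and thresholds, a term for the pool number, and fewer pools. Figures were drawn with matplotlib 3.10.9.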

Additional observations from a re-analysis of the deposited data

How the results depend on the processing

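No SLC25 member was called under any scaling, filter or threshold tried in edgeR, by limma-voom, from the 4 pools compared alone or with the replicate block, in any of the 3 comparisons. DESeq2 called 3 in THX against Long (SLC25A33, SLC25A25 and SLC25A35, adjusted p = 0.0152, 0.0287 and 0.0459) and 3 in THX against Short (SLC25A42, the minor SLC25A37 locus and SLC25A35, adjusted p = 0.0196, 0.0202 and 0.0478). Among all 18019 genes DESeq2 called 448 and 1761 in these comparisons. Leaving out 1 pool gave 0 to 2 called members in THX against Short and 0 in the other comparisons.

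Genes called in THX against Long numbered 51, and 204 with no filter, 448 with DESeq2, 22 from the 4 pools alone, 92 at a threshold of 0.1 and 2 to 37 without 1 pool. In THX against Short they numbered 165, and 259 with total counts, 908 with no filter, 1761 with DESeq2, 11 from the 4 pools alone, 392 with the replicate block, 922 at a threshold of 0.1 and 10 to 1083 without 1 pool. In Long against Short they numbered 0, and 159 with DESeq2 and 0 to 4 without 1 pool. The cause of these shifts was not tested. The replicate block gave 48 and 0 genes in the comparisons of Long with THX and Short pools. Pools of the same number deviated together with a correlation over genes of 0.07 (THX and Long), 0.21 (THX and Short) and −0.06 (Long and Short). Whether such pools share more than a number was not tested. Scaling by total counts moved the median of all genes to −0.05, −0.11 and −0.05 in THX against Long, THX against Short and Long against Short, and that of the members to −0.074, −0.10 and 0.012. Without 1 pool the median of the members ran from −0.060 to −0.0059 in THX against Long, from −0.034 to 0.032 in THX against Short and from 0.054 to 0.096 in Long against Short.

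Of the 126 differences of members, 43 turned in direction under at least 1 alternative (20 in THX against Long, 11 in THX against Short, 12 in Long against Short), none of them past the test, and the cause was not tested. For the genes given in full by the rule for named genes, members and others, 34 values turned, and they belong to 22 differences. With total counts the major SLC25A37 locus, SLC25A22 and SLC25A28 in THX against Long became −0.0020, −0.0045 and −0.031, SLC25A3 in THX against Short −0.0020, and MTCH2 and VDAC1 in Long against Short −0.014 and −0.040. Among these genes alone, the ranges without 1 pool that crossed 0 were, in THX against Long, SLC25A3 −0.11 to 0.043, SLC25A6 −0.17 to 0.039, SLC25A39 −0.21 to 0.12, SLC25A22 −0.028 to 0.12, SLC25A28 −0.11 to 0.14, MTCH1 −0.0037 to 0.19, UCP2 −0.085 to 0.20, VDAC3 −0.016 to 0.18, VDAC2 −0.17 to 0.058 and TFB1M −0.23 to 0.023. In THX against Short they were SLC25A4 −0.17 to 0.089, SLC25A24 −0.26 to 0.073, the major SLC25A37 locus −0.066 to 0.012 and SLC25A13 −0.10 to 0.058. In Long against Short they were SLC25A23 −0.025 to 0.15, SLC25A41 −0.023 to 0.38, SLC25A22 −0.015 to 0.13, MTCH2 −0.015 to 0.098, VDAC1 −0.024 to 0.055 and KLF9 −0.12 to 0.057.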
